A study of Mus musculus with 4 samples.

Results

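Apolipoproteins and the enzymes that assemble and remodel lipoproteins were read in mouse liver as 10 listed genes: Apoa1, Apoa2, Apoa4, Apoa5, Apob, Apoc3, Apoe, Mttp, Lipc and Lcat. For each symbol, the probe set with that symbol alone in the platform annotation was taken, and where there were several, the one with the highest mean over the arrays. This gave 9 of the 10 genes, each with 1 probe set, of 22180 genes named in the series; Lipc, hepatic lipase, was not analysed here. All 9 passed the filter on dim probe sets, which kept 13308 genes.

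Liver RNA was hybridised to 4 Affymetrix arrays, 1 for each of 4 groups of C57Bl6 mice aged 16 weeks. LKO-HFD and LKO-CT mice (ALB Cre MyD88 lox/lox) carried floxed MyD88 and a Cre recombinase under the albumin promoter and ate a high-fat diet with 60% fat or a control diet with 9.4% fat. WT-HFD and WT-CT mice (MyD88 lox/lox) carried the floxed gene without Cre and ate the same diets. The albumin promoter is active in hepatocytes, so other liver cells keep the gene. Each array held RNA pooled from 4 to 5 mice selected for RNA quality, so a group has 1 value per gene and the spread between mice was not measured. All values are log2 expression values, and here a difference is a subtraction of 2 of them without a replicate check. The targeted gene Myd88 had a log2 value of 6.23 on LKO-HFD and 6.44 on WT-HFD, and of 5.91 on LKO-CT and 6.10 on WT-CT. Its genotype difference was -0.21 for the high-fat pair and -0.19 for the control pair, and whether the probes cover the deleted sequence was not tested. In RNA of whole liver, fewer cells of a type and less RNA per cell cannot be told apart.

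Apolipoproteins are the protein coat of the particles that carry lipid in blood. The liver loads triglyceride onto apolipoprotein B with the microsomal transfer protein encoded by Mttp and secretes the particle as very low density lipoprotein (VLDL). It also releases apolipoproteins A-I and A-II, which form high density lipoprotein (HDL), whose cholesterol is esterified by the enzyme encoded by Lcat. Apolipoproteins A-V and C-III act in opposite directions on the clearance of plasma triglyceride, A-V promoting it and C-III slowing it.

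Apoa1, Apoc3, Apoa4 and Apoa5 lie next to each other in that order on chromosome 9. The windows below run from 250 bases before to 50 bases after the annotated start of 3 of them, 5′ to 3′ on the plus strand, from RefSeq with the build GRCm38.p6. They are shown because Apoa4 and Apoa5 were the members that differed most with diet while Apoa1, in the same cluster, differed little. Apoc3 was not among the sequences used here. Capitals mark matches, on either strand, to the nuclear receptor motif CAAAGNNCA, the half-site AGGTCA or the E-box CACGTG.
Apoa4, chr9:46240594-46240893: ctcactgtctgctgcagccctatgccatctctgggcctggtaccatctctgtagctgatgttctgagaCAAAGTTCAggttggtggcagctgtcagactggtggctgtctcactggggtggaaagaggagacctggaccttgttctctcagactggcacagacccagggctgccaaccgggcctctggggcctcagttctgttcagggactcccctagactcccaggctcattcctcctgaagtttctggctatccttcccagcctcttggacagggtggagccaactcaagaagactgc
Apoa5, chr9:46268358-46268657: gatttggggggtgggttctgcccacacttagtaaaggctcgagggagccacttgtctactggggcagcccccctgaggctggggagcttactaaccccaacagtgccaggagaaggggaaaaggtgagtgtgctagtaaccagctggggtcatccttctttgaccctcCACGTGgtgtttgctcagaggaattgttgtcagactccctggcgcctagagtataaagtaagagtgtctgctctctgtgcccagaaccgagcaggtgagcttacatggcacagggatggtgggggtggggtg
Apoa1, chr9:46228380-46228679: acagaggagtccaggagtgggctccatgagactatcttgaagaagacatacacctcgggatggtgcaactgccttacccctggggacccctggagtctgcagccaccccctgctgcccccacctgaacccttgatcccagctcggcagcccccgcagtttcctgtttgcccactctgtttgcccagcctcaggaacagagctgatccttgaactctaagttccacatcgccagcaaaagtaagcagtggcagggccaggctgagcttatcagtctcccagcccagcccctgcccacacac
The Apoa4 window held 1 match to CAAAGNNCA, whose first base is at position -182 from the start site, and the Apoa5 window 1 match to CACGTG, whose first base is at -82. The Apoa1 window held none of the 3 motifs as written, and other forms of nuclear receptor site were not searched for in any window. Among the other members with a window, Apob held CAAAGNNCA, Apoa2 held AGGTCA, and Apoe, Mttp and Lcat held none. The motifs were chosen after the values and sequences were seen. Of the 32851 windows of this length in the table, 6.36% held CAAAGNNCA, 16.3% AGGTCA and 7.15% CACGTG. No matches overlapped. A match is a run of letters and was not tested for binding.

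Most members hardly differed between the arrays. Of the 9 genes, 6 had a range over the 4 arrays below 0.2 log2: Apoa1, Apoa2, Apob, Apoe, Mttp and Lcat, with ranges of 0.024 to 0.18. The median range was 0.31 over all measured genes and 0.29 over the 1886 genes with a mean of at least 8. Apoa4 had the largest range of the members, 0.73, followed by Apoa5 with 0.59 and Apoc3 with 0.24. Among the 1886 bright genes, 93.9% had a smaller range than Apoa4, 88.9% a smaller one than Apoa5 and 38.7% a smaller one than Apoc3. Lcat had the largest range of the 6 genes below 0.2, and 23.75% of bright genes had a smaller one. This share was 14.05% for Apoa1, 7.58% for Apoa2, 7.37% for Apoe, 1.8% for Mttp and 0.16% for Apob. The share of all measured genes with a range below 0.2 was not counted.

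**Figure D1:**
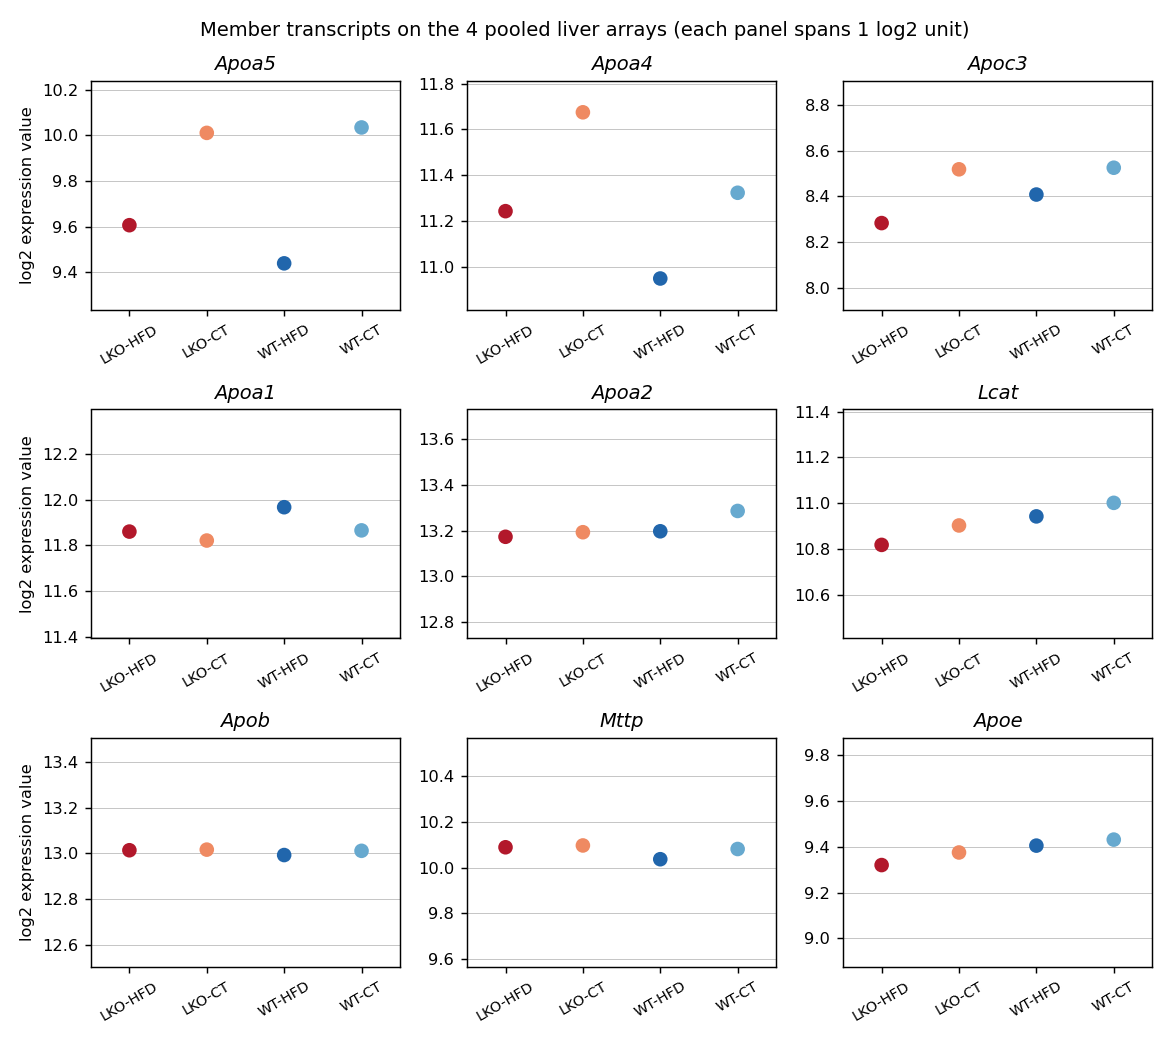
Log2 expression values of the 9 member genes on the 4 arrays, 1 point per array of pooled RNA, with each panel spanning 1 log2 unit around its own midpoint. Apoa5 and Apoa4 are lower on both high-fat arrays than on the control-diet array of the same genotype, while the points of Apob differ by at most 0.024.

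The first comparison was between high-fat and control diet within each genotype, starting with the apolipoproteins that act on triglyceride. Apoa5, which encodes apolipoprotein A-V, had a log2 value of 9.61 on the LKO-HFD array, against 10.01 on LKO-CT, and 9.44 on WT-HFD, against 10.03 on WT-CT. Both high-fat arrays lay below both control-diet arrays, and the share of measured genes in this order was not counted. The difference with diet was -0.40 in knockout, a 1.32-fold lower value, and -0.59 in wild type, a 1.51-fold lower value. Over all measured genes, 4.9% had a lower difference in knockout and 2.4% in wild type.

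Apoa4 encodes apolipoprotein A-IV, a protein of chylomicrons and HDL that is made mainly in intestine and also in mouse liver. Its log2 value was 11.24 on LKO-HFD, against 11.67 on LKO-CT, and 10.95 on WT-HFD, against 11.32 on WT-CT. Here too both high-fat arrays lay below both control-diet arrays, by a small gap between LKO-HFD and WT-CT. The difference with diet was -0.43 in knockout (1.35-fold lower) and -0.37 in wild type. In knockout 4.13% and in wild type 8.06% of measured genes had a lower difference.

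Apoc3, whose protein slows triglyceride clearance, had a log2 value of 8.28 on LKO-HFD, against 8.52 on LKO-CT, and 8.41 on WT-HFD, against 8.53 on WT-CT. For Apoc3 as well, both high-fat arrays were below both control-diet arrays. The difference was -0.24 in knockout and -0.12 in wild type. In knockout 66.9% and in wild type 40.9% of measured genes had a smaller difference in size.

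Of the members tied to HDL, Apoa1, Apoa2 and Lcat differed less with diet than Apoa4. Apoa1, the main protein of HDL, had a log2 value of 11.86 on LKO-HFD, against 11.82 on LKO-CT, and 11.97 on WT-HFD, against 11.87 on WT-CT. It was the 1 member with a higher value on high-fat diet in both genotypes, by 0.039 in knockout and 0.10 in wild type. Apoa2, the second protein of HDL, had values of 13.17 on LKO-HFD and 13.19 on LKO-CT, and of 13.20 on WT-HFD and 13.29 on WT-CT. Lcat had 10.82 on LKO-HFD and 10.90 on LKO-CT, and 10.94 on WT-HFD and 11.00 on WT-CT.

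The members of VLDL assembly had almost the same value on every array. Apob, the structural protein of VLDL, had a log2 value of 13.01 on LKO-HFD and 13.02 on LKO-CT, and of 12.99 on WT-HFD and 13.01 on WT-CT. Mttp had 10.09 on LKO-HFD and 10.10 on LKO-CT, and 10.04 on WT-HFD and 10.08 on WT-CT. The diet difference of Apob was -0.0027 in knockout and -0.018 in wild type, and that of Mttp was -0.0079 and -0.045. The highest value on each array was between 13.65 and 13.72, and Apob and Apoa2 lay close to it. Whether their signal was near saturation, where differences are compressed, was not tested. Apoe, the ligand that liver receptors bind on remnant particles, had 9.32 on LKO-HFD and 9.38 on LKO-CT, and 9.41 on WT-HFD and 9.43 on WT-CT.

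Counted at 1.5-fold, 0 of 9 members differed with diet in knockout, where 4.01% of measured genes did. In wild type 1 of 9 did, which was Apoa5, where 4.21% of measured genes did. Apoa5 was just past that fold, and after cyclic loess normalisation its difference was -0.57 and after median centring -0.54, which are both short of it. Among the 1886 bright genes these shares were 5.30% in knockout and 5.25% in wild type. At 1.25-fold, a fold added after the values were seen, Apoa4 and Apoa5 differed in each genotype, 2 of 9 members, where 19.9% of measured genes did in knockout and 18.4% in wild type; both were lower by that fold in both genotypes, as were 2.49% of measured genes. The members' median difference was -0.055 in knockout and -0.059 in wild type, against 0.013 and -0.025 over all measured genes. On the deposited values 8 of 9 members were lower on high-fat diet in both genotypes, where 29.0% of measured genes were. This count was 5 after cyclic loess, where 26.6% of measured genes were lower in both, and 5 after median centring, where 25.0% were, since differences of a few hundredths turned sign. Apoa4, Apoa5, Apoc3 and Lcat had the negative sign in both genotypes under each of these scalings.

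**Figure D2:**
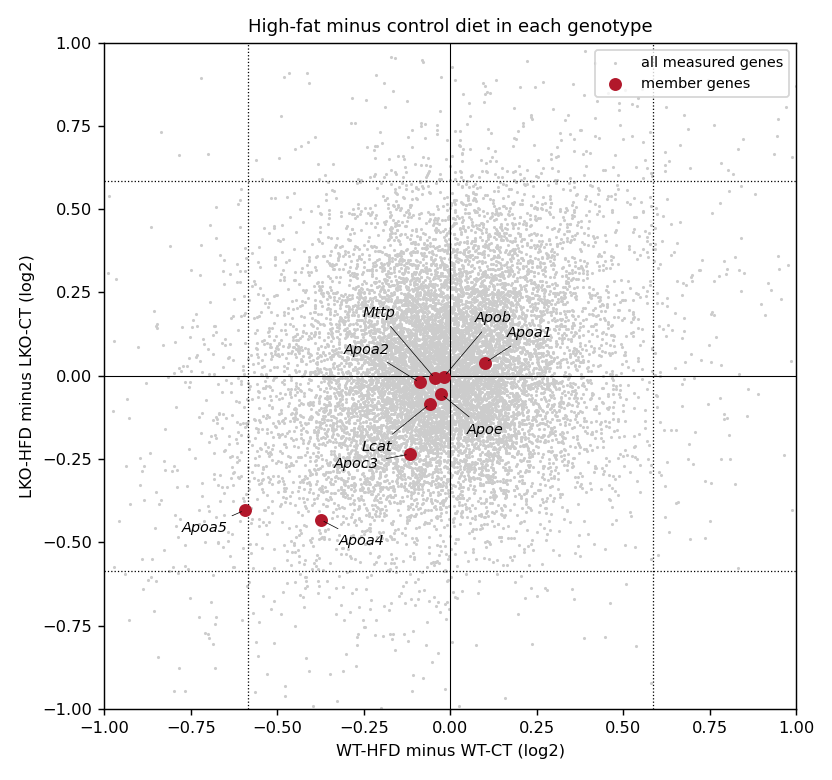
Diet difference (high-fat minus control, log2) in knockout on the vertical axis against that in wild type on the horizontal axis, for all measured genes (grey, those within 1 log2) and the 9 members (red). Dotted lines mark 1.5-fold. Apoa5 (-0.40 in knockout, -0.59 in wild type) and Apoa4 (-0.43 in knockout, -0.37 in wild type) lie to the lower left, and the other members lie near the centre.

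Limma's fit of diet and genotype as additive terms over all 4 arrays gives these differences an error. The fit has 1 residual degree of freedom, the diet by genotype difference, so its error is not the spread between mice. For diet the log2 effect was -0.50 for Apoa5 (SE 0.13, limma adjusted p over all measured genes 0.373), -0.40 for Apoa4 (SE 0.12, limma adjusted p 0.427) and -0.18 for Apoc3 (SE 0.12, limma adjusted p 0.730). None of the 9 members passed an adjusted p of 0.05 for diet, and of all 13308 genes 0.00% did, with 1238 genes (9.30%) at an unadjusted p under 0.05, among them 2 members, Apoa4 and Apoa5. The adjusted p of the other 7 members lay between 0.730 and 0.989 in limma.

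The 4 neighbours on chromosome 9 did not share 1 direction. Apoa5, Apoa4 and Apoc3 were lower on high-fat diet in both genotypes and Apoa1 was higher. The next annotated gene after Apoa5 is Zpr1, a zinc finger protein gene, which was added to the description after its values were seen. Zpr1 had a log2 value of 7.70 on LKO-HFD, against 7.97 on LKO-CT, and 7.47 on WT-HFD, against 8.26 on WT-CT. Its diet difference was -0.27 in knockout and -0.80 in wild type.

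**Figure D3:**
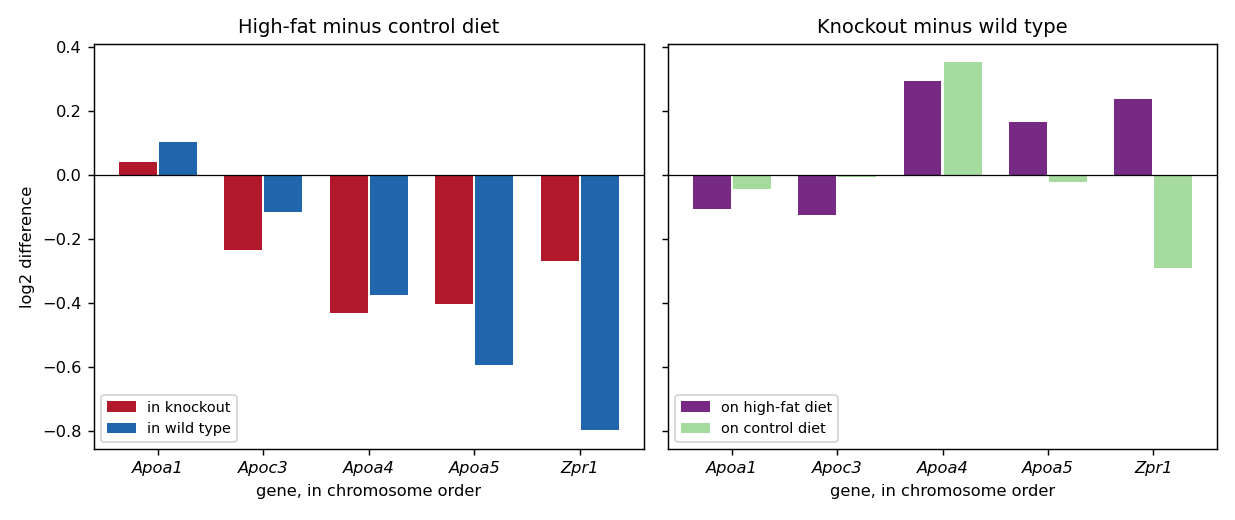
Log2 differences of 4 member genes and the neighbouring Zpr1, in their order on chromosome 9: high-fat minus control diet in knockout and in wild type (left), and knockout minus wild type on high-fat and on control diet (right). On the left Apoa1 is above 0 and the genes from Apoc3 to Zpr1 are below 0 in both genotypes; on the right Apoa4 is the gene with bars of 0.29 and 0.35.

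The second comparison was between knockout and wild type on each diet. Apoa4 was the member with the largest genotype difference. It was higher in knockout on both diets, by 0.29 with high-fat feeding (1.23-fold) and by 0.35 with control feeding (1.28-fold), under each scaling tried. For the high-fat arrays 86.8% of measured genes had a lower difference than Apoa4, and for the control arrays 96.2%. The 4 arrays were thus in the order LKO-CT, WT-CT, LKO-HFD and WT-HFD for Apoa4, from high to low.

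The other 8 members differed with genotype by at most 0.099 in size on control diet. On high-fat diet Apoa5 was higher in knockout by 0.17, Lcat differed by -0.12, Apoc3 by -0.12, Apoa1 by -0.11 and Apoe by -0.085. The differences of Mttp and Apob lay between 0.0053 and 0.052, and that of Apob on control diet turned sign after cyclic loess. Lcat was lower in knockout on both diets, with a difference of -0.12 when fed the high-fat diet and -0.099 when fed control diet, as were Apoa1, Apoa2, Apoc3 and Apoe; 24.6% of measured genes were lower on both. After cyclic loess 3 members were lower on both diets, Apoa1, Apoe and Lcat, where 25.1% of measured genes were, and after median centring 4, these and Apoa2, where 21.4% were.

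**Figure D4:**
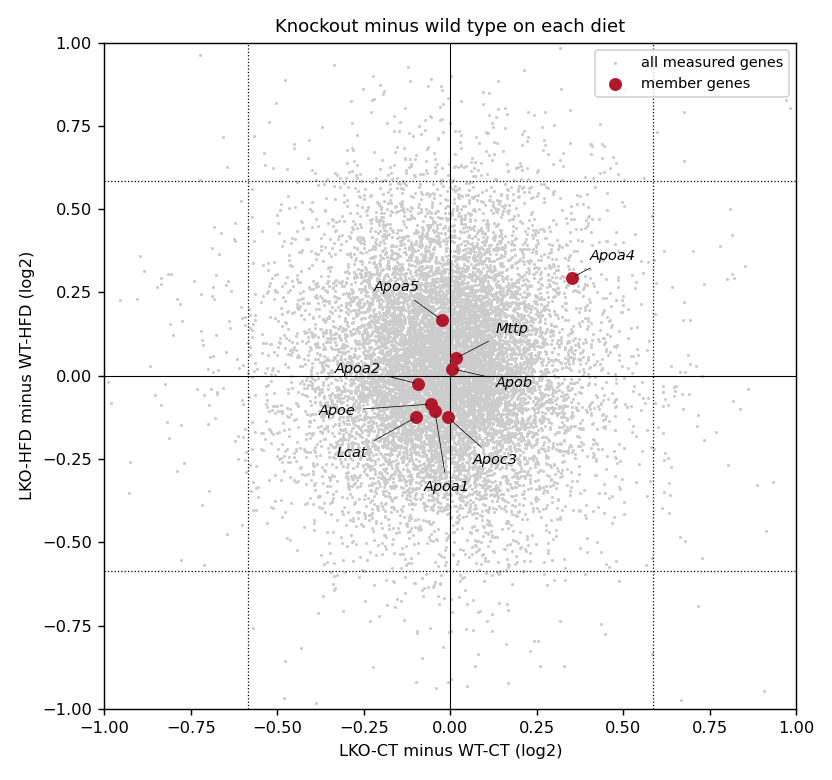
Genotype difference (knockout minus wild type, log2) on high-fat diet on the vertical axis against that on control diet on the horizontal axis, for all measured genes (grey, those within 1 log2) and the 9 members (red). Dotted lines mark 1.5-fold. Apoa4 lies at 0.29 (high-fat) and 0.35 (control), and no member reaches 1.5-fold on either axis.

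At 1.5-fold, 0 of 9 members differed with genotype on the high-fat arrays, where 3.10% of measured genes did, and 0 of 9 on the control arrays, where 1.77% did. The members' median genotype difference was -0.024 for each diet, against 0.022 (high-fat) and -0.015 (control) over all measured genes. The sign of both medians depended on the scaling. The members' high-fat median was 0.012 after cyclic loess, and their control median was 0.020 after median centring. At 1.25-fold, a fold added after the values were seen, the count was 0 of 9 for the high-fat arrays, where 18.0% of measured genes differed, and 1 of 9 for the control arrays, Apoa4, where 11.5% did. In limma's additive fit the log2 effect of genotype on Apoa4 was 0.32 (SE 0.12, adjusted p 0.975). None of the 9 members passed, and of all measured genes 0.00% did, with 567 (4.26%) at an unadjusted p under 0.05, among them 1 member, Apoa4.

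How far the diet difference itself differed between genotypes could not be tested with 1 array a group. The difference of diet differences, knockout minus wild type, was 0.19 for Apoa5, -0.12 for Apoc3 and -0.058 for Apoa4, and between -0.062 and 0.069 for the other 6. At 1.5-fold 0 of 9 members differed, where 8.24% of measured genes did.

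The genes whose values over the 4 arrays were most like those of Apoa4, the member with the largest range, were found by the Euclidean distance between log2 values centred on each gene's mean. They were Tspan9 (distance 0.073), Ostc (0.078), Gbp8 (0.088), Naa40 (0.089) and Prss8 (0.092). Apoa5 was the member nearest to Apoa4, at a distance of 0.30 and rank 338 of the measured genes, and Apoc3 was at 0.45. With 4 arrays such likeness is a description.

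Among 10 other measured apolipoprotein genes and genes of Apob RNA editing, Saa4 and Apom differed most. Saa4, a constitutive serum amyloid A protein of HDL, had a log2 value of 12.33 on LKO-HFD, against 11.78 on LKO-CT, and 12.43 on WT-HFD, against 11.30 on WT-CT. It was higher on high-fat diet by 0.56 in knockout and 1.13 in wild type. The related gene Saa2, which encodes an acute phase protein carried on HDL, had 10.83 on LKO-HFD, 12.34 on LKO-CT, 10.73 on WT-HFD and 4.97 on WT-CT, and WT-CT was the lowest array for both genes. Serum amyloid A genes are similar in sequence, and shared probe signal was not tested.

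Apom, whose protein carries sphingosine-1-phosphate on HDL, had 7.35 on LKO-HFD, against 8.05 on LKO-CT, and 7.61 on WT-HFD, against 7.85 on WT-CT, a diet difference of -0.70 in knockout and -0.23 in wild type. The diet difference of Apon was -0.041 in knockout and 0.39 in wild type. Apobec1, the enzyme that edits Apob mRNA, differed by 0.22 in knockout and -0.21 in wild type. At 1.5-fold 1 of the 10 genes differed with diet in each genotype, Apom in knockout and Saa4 in wild type, and 0 of 10 with genotype on either diet. For this list and those below, the shares of measured genes past 1.5-fold with diet were 4.01% in knockout and 4.21% in wild type. With genotype they were 3.10% on the high-fat arrays and 1.77% on the control arrays.

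Among 25 measured genes that help to assemble and secrete VLDL, Tm6sf2 differed most. Tm6sf2 encodes a membrane protein needed to lipidate VLDL, and its value was 7.29 on LKO-HFD, against 7.60 on LKO-CT, and 7.04 on WT-HFD, against 8.10 on WT-CT. Its diet difference was -0.31 in knockout and -1.06 in wild type, and its genotype difference 0.25 with high-fat feeding and -0.50 with control feeding. The WT-CT array was the highest for this gene. Ces1d, a carboxylesterase that mobilises stored triglyceride, was higher with diet by 0.61 in knockout and 0.015 in wild type, and Kif5b by 0.39 and 0.17. The list held 1 gene past 1.5-fold with diet in each genotype, Ces1d and Tm6sf2, and 0 with genotype, and its median differences lay between -0.075 and 0.020.

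Of 12 measured genes of lipoprotein receptors and uptake, 7 had a diet difference below 0 in knockout (median -0.073), where 47.7% of all measured genes did, and 11 in wild type (median -0.13), where 55.0% did. The count in wild type was 10 after cyclic loess, against 49.4% of measured genes, and 10 after median centring, against 45.2%. Lsr, the lipolysis stimulated lipoprotein receptor, had 8.03 on LKO-HFD, against 8.65 on LKO-CT, and 8.08 on WT-HFD, against 8.53 on WT-CT. Its diet difference was -0.62 in knockout and -0.45 in wild type. Stab1, a scavenger receptor of sinusoidal cells, differed by -0.39 and -0.40. Cd36, which takes up fatty acids and oxidised lipoproteins, went opposite ways, by 0.90 in knockout and -0.48 in wild type, and Lrp1, a remnant receptor, by -0.42 in knockout and 0.16 in wild type. At 1.5-fold with diet Cd36 was higher and Lsr lower in knockout and 0 of 12 differed in wild type, and with genotype only Cd36 of the 12 differed, by 0.72 on the high-fat arrays and -0.66 on the control arrays.

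Among 14 measured genes of HDL formation, lipases and plasma remodelling, Pltp, the phospholipid transfer protein, had 7.50 on LKO-HFD, against 7.69 on LKO-CT, and 7.66 on WT-HFD, against 8.28 on WT-CT. Its diet difference was -0.19 in knockout and -0.62 in wild type, and its genotype difference -0.16 with high-fat feeding and -0.59 with control feeding. Abca1, which loads lipid onto apolipoprotein A-I, was higher with diet by 0.016 in knockout and by 0.47 in wild type. Lipg, endothelial lipase, differed by 0.59 in knockout and -0.38 in wild type, and Angptl8, an inhibitor of lipoprotein lipase activity, by -0.069 and -0.57. At 1.5-fold 1 of the 14 genes differed with diet in each genotype, Lipg in knockout and Pltp in wild type, and with genotype 0 on the high-fat arrays and 1, Pltp, on the control arrays. The list's medians with diet were 0.017 in knockout, where the sign turned after cyclic loess, and -0.13 in wild type.

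Of 26 measured transcription factor genes, Nr1d1, a repressor in the circadian clock, differed with diet by -0.80 in knockout and -0.56 in wild type. Srebf1, a driver of lipid synthesis, was higher by 0.61 and 0.82, and Srebf2, its counterpart for cholesterol, differed by -0.78 and -0.20. Ppargc1a, a coactivator of fasting genes, differed by -0.020 and -0.77. Hnf4a, the hepatocyte factor that activates many apolipoprotein genes, was named after its values were seen. It had 9.42 on LKO-HFD, against 9.72 on LKO-CT, and 9.57 on WT-HFD, against 9.77 on WT-CT. Of the 26 genes, 14 had a diet difference below 0 in knockout and 12 in wild type. Over all measured genes 47.7% did in knockout and 55.0% in wild type. At 1.5-fold 1 of the 26 was higher and 2 were lower with diet in knockout, 1 was higher and 1 lower in wild type, and 0 differed with genotype on either diet. The list's median diet difference was -0.011 in knockout and 0.013 in wild type.

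**Figure D5:**
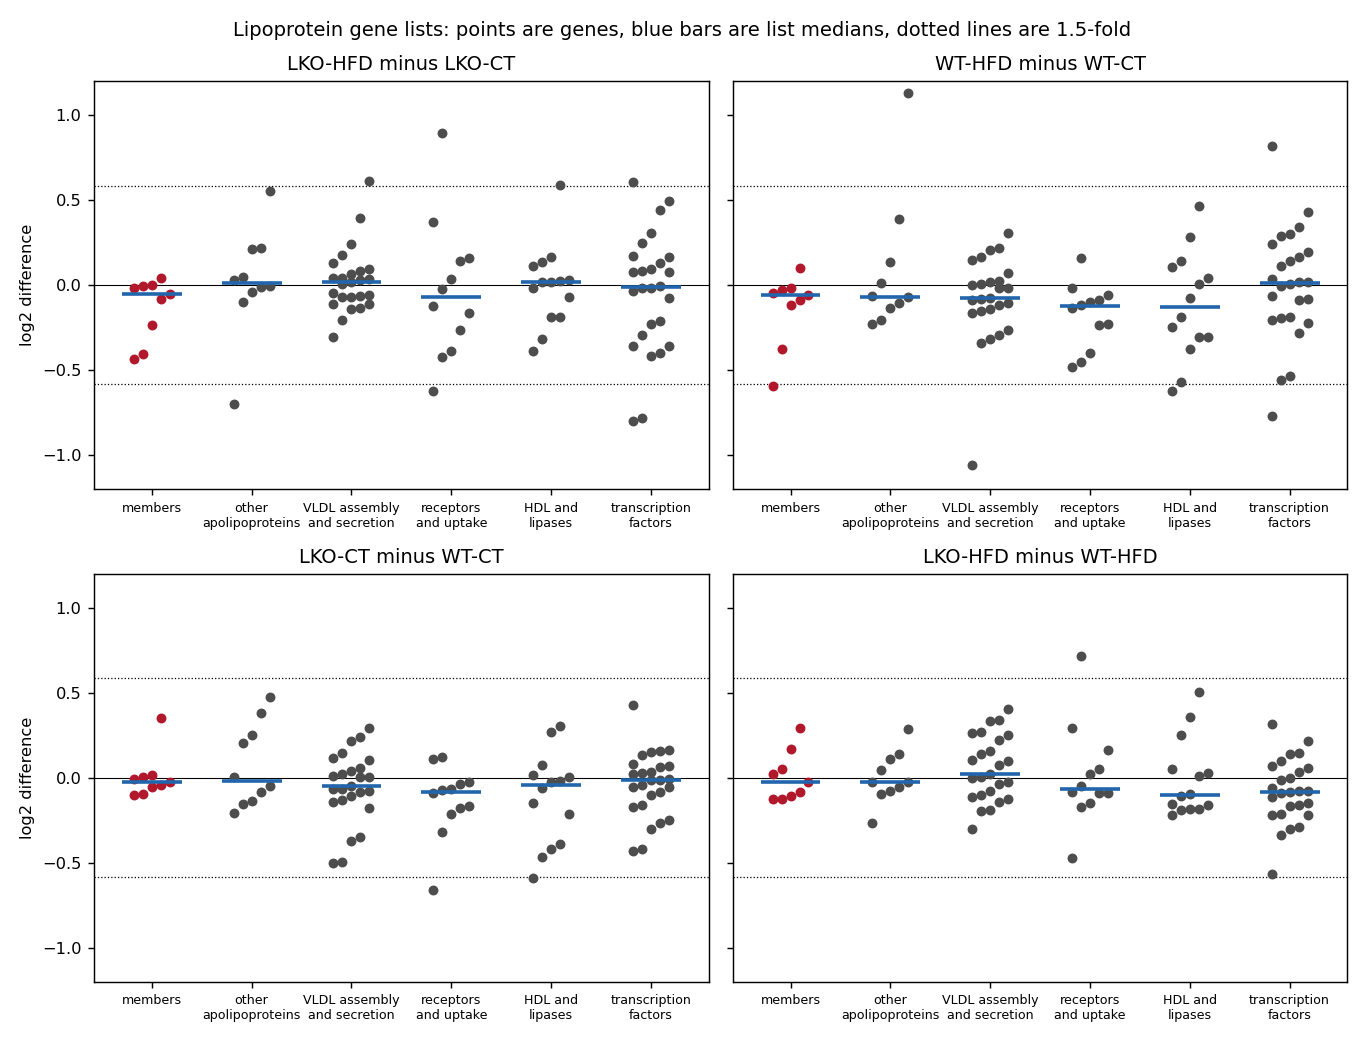
Log2 differences between 2 arrays for the 9 members (red) and 5 lists of related genes (grey points, 1 per measured gene), in 4 panels for the 2 diet and the 2 genotype differences. Blue bars are list medians and dotted lines mark 1.5-fold. All medians lie between -0.13 and 0.020, and the points farthest from 0 are Saa4 at 1.13 and Tm6sf2 at -1.06 with diet in wild type.

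The make-up of the RNA was checked with markers of cells that liver RNA could hold. The mean log2 value of 11 hepatocyte markers was 12.55 on LKO-HFD, 12.55 on LKO-CT, 12.52 on WT-HFD and 12.47 on WT-CT. That of 12 Kupffer cell and macrophage markers, cells that also make Apoe, was 7.23 on LKO-HFD, 7.37 on LKO-CT, 7.21 on WT-HFD and 7.49 on WT-CT. Intestine also makes Apoa4, Apob and Mttp; the mean of 12 enterocyte markers was 4.81 on LKO-HFD, 4.80 on LKO-CT, 4.76 on WT-HFD and 4.76 on WT-CT. Of these, 6 did not pass the filter: Vil1 (3.41 on LKO-HFD, 3.40 on LKO-CT, 3.40 on WT-HFD and 3.37 on WT-CT), Lct, Sis, Alpi, Slc5a1 and Cdx1. The other 6 went different ways. Fabp2 had 10.43 on LKO-HFD, 9.75 on LKO-CT, 9.98 on WT-HFD and 9.88 on WT-CT. Rbp2, close to the filter, was higher in knockout by 0.29 on the high-fat arrays and 0.49 on the control arrays. Mogat2, also close to it, was higher in knockout by 0.195 and 0.048. The genotype difference on the high-fat and the control arrays was 0.45 and -0.13 for Fabp2 and -0.061 and 0.035 for Cdhr5. For Anpep it was -0.11 and 0.039, and for Cdx2 -0.057 and -0.10. Cdhr5 differed with diet by -0.23 in knockout and -0.13 in wild type and Mogat2 by -0.045 and -0.19, while Cdx2 differed by 0.18 and 0.14 and Anpep by -0.095 and 0.059. Exocrine pancreas markers averaged 8.88 on LKO-HFD, 7.83 on LKO-CT, 7.53 on WT-HFD and 5.34 on WT-CT. Acute phase genes averaged 10.77 on LKO-HFD, 11.33 on LKO-CT, 10.48 on WT-HFD and 9.35 on WT-CT, and skeletal muscle markers 3.69 on LKO-HFD, 3.82 on LKO-CT, 4.85 on WT-HFD and 3.85 on WT-CT. Adipocyte markers averaged 5.35 on LKO-HFD, 5.25 on LKO-CT, 5.35 on WT-HFD and 5.19 on WT-CT. Of these 5 markers Adipoq and Lep did not pass the filter. Plin1 and Retn were close to the filter. Plin1 had 3.60 on LKO-HFD, 3.66 on LKO-CT, 3.65 on WT-HFD and 3.33 on WT-CT. Retn had 3.65 on LKO-HFD, 3.84 on LKO-CT, 3.81 on WT-HFD and 3.87 on WT-CT. Only Car3 was bright, with 12.97 on LKO-HFD, 12.30 on LKO-CT, 12.83 on WT-HFD and 12.48 on WT-CT. Whether its signal came from adipocytes was not tested. Of the transcripts that tell the sexes apart, Xist was below the filter and the 3 from the Y chromosome were measured on each array. Uty had 7.30 on LKO-HFD, 6.70 on LKO-CT, 6.63 on WT-HFD and 6.38 on WT-CT. In that order of arrays, Kdm5d had 5.67, 5.36, 5.25 and 4.82, and Eif2s3y had 8.23, 7.67, 7.71 and 7.84. The part of these differences in the values of Apoa4 and Apoa5 was not tested.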

How the data were processed

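The authors deposited 1 log2 value for each probe set and array. They summarised the probes by RMA (robust multi-array average), and the tool listed per the submitters' processing notes is Affymetrix Expression Console; no version is given in the sources used here. RMA evens out array-wide brightness and compresses differences of dim probe sets. Near saturation, differences of very bright probe sets can also be compressed, which was not tested. Detection calls were not used, and the number of arrays limits the precision. The platform annotation gave 1 symbol to 23521 of 41345 probe sets. Genes whose mean was under the 40th percentile (3.47) were left out. Groups come from the labels. Differences are subtractions of log2 values, counted at 1.5-fold. The additive fit used limma 3.58.1 in R 4.3.3 (Benjamini-Hochberg at 0.05) and was tested on simulated data. Python 3.11.15, pandas 2.3.3, NumPy 2.4.6 and matplotlib 3.10.9 did the rest.

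The members and the 13 other lists (181 further genes, 154 measured) were chosen with earlier results of these data known. Named besides members are Myd88 and up to 4 genes per list with the largest differences, plus those past 1.5-fold in both differences of a factor; Zpr1, Hnf4a and some markers were named after their values were seen. Alternatives were cyclic loess, median centring, the mean of probe sets, other folds, other filters and an eBayes trend.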

Additional observations from a re-analysis of the deposited data

Results flagged for a closer look

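Of 69 genes (the members, those named from the other lists and Zpr1), the 37 below differed in opposite directions in the 2 genotypes or on the 2 diets. Over all measured genes 64.5% did so, and of the 9 members 1. There was 1 array behind each value, and the difference was not tested. With diet alone they were Acta1, Ttn, Rbp2, Saa2, Lcn2, Orm2 and Mt1. In genotype alone they were Apoa5, Zpr1, Saa4, Apom, Tm6sf2, Ces1d, Lsr, Angptl8, Abca1, Srebf2, Ppargc1a, Cyp2e1, C1qa, Timd4, Fabp2, Cdhr5, Mb and Car3. The rest were opposite in both. Each gene is given as the difference of the diet differences, knockout minus wild type, in log2. For Apoa5 the value was 0.19: its genotype difference was 0.17 on high-fat diet and -0.024 on control diet. After median centring these were 0.15 and 0.020, so the directions of Apoa5 were no longer opposite. For its neighbour Zpr1 it was 0.53. Among the other apolipoprotein genes it was 0.42 for Apobec1, -0.57 for Saa4, -0.47 for Apom and -0.43 for Apon. In VLDL assembly it was 0.75 for Tm6sf2 and 0.60 for Ces1d. Among receptors it was 1.38 for Cd36, -0.17 for Lsr and -0.58 for Lrp1. In HDL formation and lipases it was 0.97 for Lipg, 0.50 for Angptl8 and -0.45 for Abca1. Among transcription factors it was 0.75 for Ppargc1a and -0.59 for Srebf2. Of the 37, the acute phase genes Saa2 (-7.27), Lcn2 (-3.48) and Orm2 (-3.28) had the largest sizes, and Mt1 had -1.82. Skeletal muscle markers had -1.83 for Acta1, -1.42 for Ttn, -1.40 for Mb and -1.39 for Tnnt3. Macrophage markers had 1.11 for Marco, 0.81 for Adgre1, 0.42 for Timd4 and -0.22 for C1qa. Enterocyte markers had 0.58 for Fabp2, -0.20 for Rbp2 and -0.097 for Cdhr5. Hepatocyte markers had 0.25 for Tat, -0.13 for Cyp2e1 and -0.34 for Fga. Adipocyte markers had 0.32 for Car3 and -0.37 for Plin1, and the Y-linked Eif2s3y had 0.69. All of these use the single WT-CT array.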

How the results depend on the processing

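Of 135 recomputed member differences (9 genes, 5 differences, 3 alternatives), 0 moved by 0.1 log2 or more. The largest move was 0.083 with cyclic loess and 0.060 with median centring. Each member has 1 probe set, so averaging probe sets changed nothing and could not move a value. Many member differences were themselves under 0.1 log2, so this limit does not mark a change of sign in them. Some of these did turn sign, as given above. The count of members past 1.5-fold with diet in wild type was 1, and it was 0 after cyclic loess, 0 after median centring and 0 at 2-fold, since Apoa5 was just past the fold. At 1.25-fold, a fold chosen after the data were seen, 2 members differed with diet in knockout and 2 in wild type, Apoa4 and Apoa5 in both, and 1, Apoa4, with genotype on control diet; 19.9%, 18.4% and 11.5% of measured genes did. Limma called 0 members for diet and 0 for genotype in each of 5 refits, with adjusted p for diet between 0.186 and 0.431 for Apoa5 and between 0.280 and 0.483 for Apoa4. Limma's count over all genes was 0 for diet, and 70 after cyclic loess, and 0 for genotype, and 3 after cyclic loess; the cause was not tested. No paired analysis was possible because each group has 1 array. Leaving out an array leaves limma's fit no residual degree of freedom, and signal over background is unknown.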
